A study of Mus musculus with 26 samples.

Results

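A list of 9 transcription factors known from axon regeneration was followed across the whole series: *Atf3*, *Creb3* and *Cebpd*, which belong to the basic leucine zipper (bZIP) class, the HMG-box factor *Sox11*, the zinc-finger factors *Klf4*, *Klf6*, *Klf7* and *Klf9*, and *Myc*. They are a list of gene names, drawn up with earlier results of these data known. All 9 members were found by symbol among the 55401 genes of the deposited tables, and all 9 passed the filter on low counts in every fit. The smallest count of any member in any library was 192, for *Sox11* in a naive control.

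RNA was sequenced from dorsal root ganglia (DRG) of levels L4 to L6, which hold the cell bodies of sensory neurons whose axons run in the sciatic nerve, and from DRG neurons in culture. The series' title names the question, whether the aryl hydrocarbon receptor (AhR, a ligand-activated transcription factor encoded by *Ahr*) limits axon regeneration. Conditional knockout (cKO) mice had the label Ahr f/f Thy1-CRE(ERT2/EYFP): both *Ahr* copies were floxed, and the *Thy1* promoter drove a Cre recombinase that tamoxifen activates, with yellow fluorescent protein (EYFP). Control mice carried floxed *Ahr* (fl/fl or fl/+) and no Cre by their labels. The *Thy1* promoter is known as a neuronal promoter, so the other cells of a ganglion may keep the gene.

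Naive and injured mice of both genotypes were given 5 daily doses of tamoxifen (100 mg/kg) when 28 weeks old and were used 5 weeks later (3 mice per genotype and condition). Injured mice had a sciatic nerve crush 1 day before the ganglia were taken. Replicates 1 and 2 of the naive controls and of the injured controls were Ahr fl/+ and replicate 3 of each was Ahr fl/fl. The neuron groups (3 control, fl/fl, and 3 cKO) were semi-purified DRG neurons 24 hours after seeding. The sham groups came from 2 control mice (Ahr f/+ and fl/fl) and 2 cKO mice 1 day after sham surgery, each giving an ipsilateral (operated) and a contralateral sample. The labels state no tamoxifen and no age for the neuron and sham mice. Tissue was taken 2 to 4 hours after lights on. Each sample is a mouse by its label, apart from the paired sides of the sham mice, so n is the number of mice.

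After a peripheral nerve injury, sensory neurons switch from transmitting signals to regrowing an axon, and a set of transcription factors is induced in the cell body. ATF3 and SOX11 are classical members of that set, KLF6 and KLF7 are known as promoters of neurite growth, and KLF4 and KLF9 as brakes on it. CREB3 (also called LUMAN) is a membrane-bound factor that is cleaved and transported from injured axons to the nucleus, C/EBP delta responds to inflammatory signals, and MYC drives growth and ribosome production.

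Total counts per library were 20169388 to 23540375 in naive and injured ganglia, 39306414 to 58751270 in sham ganglia and 25299938 to 88180611 in neurons, with control replicate 1 at the lowest neuron total. *Ahr*, counted over its whole span, had group means from 13.5 to 50.8 CPM (counts relative to the library's total count, TMM-scaled within each set) and passed the test in none of the 5 genotype comparisons, so its count does not check the labels. *Thy1*, whose promoter drives the transgene, was higher in every cKO library than in every control library of its set. The naive and neuron libraries were labelled female and the sham libraries male. By sex-linked transcripts, 2 injured libraries went against their labelled sex: control replicate 3 was female and cKO replicate 2 male. Hence 2 of 3 injured cKO libraries were male by transcripts and the other 10 naive and injured libraries female.

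The genes lie as follows in the mouse genome (GRCm38, GENCODE M21). *Atf3* is at chr1:191170296-191218039 on the minus strand, *Sox11* at chr12:27334264-27342574 (minus) and *Klf6* at chr13:5861482-5870394 (plus). *Klf7* is at chr1:64029447-64122282 (minus), *Klf4* at chr4:55527143-55532466 (minus) and *Klf9* at chr19:23141226-23168134 (plus). *Creb3* is at chr4:43562332-43567060 (plus), *Cebpd* at chr16:15887286-15891031 (plus) and *Myc* at chr15:61985391-61990374 (plus). *Sox11*, *Klf4*, *Klf6* and *Myc* share no base with another annotated gene. *Creb3* shares 493 bases (10.4% of its span) with *Tln1* and *Gba2*, and *Tln1* held 275% of the counts of *Creb3* in naive and injured ganglia and 729% in neurons. *Cebpd* shares 1808 bases (48.3% of its span) with *Spidr*, which held 35.6% of its counts in ganglia and 21.8% in neurons. Reads in a shared stretch cannot be assigned from these tables, so values of *Creb3* and *Cebpd* are uncertain to that extent.

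Promoters (250 bases before to 50 after the start site, 300 bases in all) were taken from RefSeq for GRCm38.p6, which gave 7 of the 9 members, without *Cebpd* and *Myc*. Shown are the 3 with the largest increase after crush, followed by *Klf9*, the member whose cKO and control libraries separated in most settings. The lines give *Atf3* (chr1:191183284-191183583, minus strand), *Sox11* (chr12:27342669-27342968, minus strand), *Klf6* (chr13:5861239-5861538, plus strand) and *Klf9* (chr19:23140976-23141275, plus strand), each 5′ to 3′ on the gene's strand. The RefSeq start of *Atf3* lies inside the GENCODE span, that of *Sox11* upstream of it. Capitals mark the AhR core GCGTG or its complement CACGC.
Atf3: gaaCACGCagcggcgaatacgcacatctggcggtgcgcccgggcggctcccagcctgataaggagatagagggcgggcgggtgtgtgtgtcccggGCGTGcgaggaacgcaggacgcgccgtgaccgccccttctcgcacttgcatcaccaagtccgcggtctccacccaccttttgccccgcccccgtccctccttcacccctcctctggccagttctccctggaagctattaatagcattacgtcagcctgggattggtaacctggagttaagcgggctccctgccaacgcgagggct
Sox11: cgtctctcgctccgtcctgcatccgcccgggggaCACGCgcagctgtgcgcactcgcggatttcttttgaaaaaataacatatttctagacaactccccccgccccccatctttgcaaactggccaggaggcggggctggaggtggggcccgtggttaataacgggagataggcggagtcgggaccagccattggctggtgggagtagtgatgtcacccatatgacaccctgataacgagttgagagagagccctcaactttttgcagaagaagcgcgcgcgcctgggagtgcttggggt
Klf6: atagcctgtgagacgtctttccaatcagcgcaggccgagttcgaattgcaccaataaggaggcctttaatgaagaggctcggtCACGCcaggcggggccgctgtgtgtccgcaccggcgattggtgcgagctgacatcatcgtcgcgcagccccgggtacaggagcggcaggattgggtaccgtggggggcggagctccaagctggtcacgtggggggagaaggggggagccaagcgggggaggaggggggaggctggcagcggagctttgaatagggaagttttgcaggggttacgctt
Klf9: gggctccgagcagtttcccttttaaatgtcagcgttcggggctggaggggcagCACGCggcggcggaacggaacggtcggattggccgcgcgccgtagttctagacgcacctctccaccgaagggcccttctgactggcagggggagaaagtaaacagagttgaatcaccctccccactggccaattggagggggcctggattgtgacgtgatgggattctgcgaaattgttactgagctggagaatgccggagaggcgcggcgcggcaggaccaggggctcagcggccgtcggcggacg

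The AhR core GCGTG, read on both strands, was in 6 of the 7 member promoters (not in *Klf4*) and in 32.4% of 32851 RefSeq promoters of the same length. *Atf3* held it at positions -247 and -155 from the start site, *Sox11* at -216, *Klf6* at -167 and *Klf9* at -197. The core of the cyclic AMP response element, TGACG, was in *Atf3* (at -7), *Klf9* (at -46) and *Klf4* (at -232), against 20.8% of all promoters, and its full form TGACGTCA was in none of the 7 against 1.79%. The AP-1 motif TGANTCA was in *Klf9* only (at -89), against 7.81% of all promoters, and the C/EBP-ATF motif (CARE) TGATGNAA in *Atf3* only (at -110), against 3.97%. The E-box CACGTG, a MYC motif, was in *Klf4* (at -182) and *Klf6* (at -43), against 7.15%. The C/EBP motif TTNCNNAA was in *Sox11* only, against 40.7%, the GC box GGGCGG in 6 of 7, against 35.7%, and the CACCC box in 5 of 7, against 57.5%. TGACG is part of TGACGTCA, so these counts overlap. A match describes the letters of this window and was not tested for binding.

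Levels between genes were compared per length, and their order depended on the length used. The deposited FPKM use the gene's span, so the counts may include reads from introns. Values per kilobase of exon may then be too high for genes with long introns. The span was 11.4 times the exon length for *Klf7* and 22.2 times for *Atf3*, against 1 for *Sox11* and *Cebpd*. Per kilobase of exon, *Klf7* was the highest member in naive control ganglia, with a mean of 54.6 CPM per kb, and *Klf9* (33.1) and *Klf6* (26.9) followed with overlapping libraries. *Creb3* stood at 14.9, *Myc* at 7.09 and *Atf3* at 6.23, without overlap, while *Klf4* (6.27) overlapped *Myc*, *Atf3* and *Cebpd*. *Cebpd* was at 4.01 and *Sox11* was the lowest at 1.18 CPM per kb. One day after crush *Atf3* was, on the same scale, the highest in control ganglia at 311 CPM per kb, above *Klf7* at 76.996, and in cultured control neurons it was again the highest at 375. *Klf4* was the lowest member in injured ganglia and in neurons of both genotypes, at group means of 4.48 to 8.37 CPM per kb, although its libraries overlapped those of *Sox11* in control neurons. In the deposited FPKM, whose length is the gene's span with introns, *Klf6* was instead the highest in control libraries of these 3 groups, at means of 13.7 in naive ganglia, 30.8 in injured ganglia and 42.6 in neurons. In sham control ganglia *Creb3* was the highest in FPKM, at 13.3 contralaterally and 13.5 ipsilaterally, above *Klf6* at 6.31 and 7.53. On that scale *Atf3*, whose span is 22.2 times its exon length, was the lowest in naive controls (0.29). It was at rank 2 in injured controls (13.8), where its libraries overlapped those of *Sox11*. In control neurons it was at rank 5 (16.9), where its libraries overlapped those of *Creb3* and *Cebpd*. *Klf7* was at rank 4 in naive controls (4.92), where its libraries overlapped those of *Klf9* and *Cebpd*. It was the lowest in control neurons (4.32), where its libraries overlapped those of *Klf4*. *Klf4* was the lowest in injured controls (3.12).

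**Figure D1:**
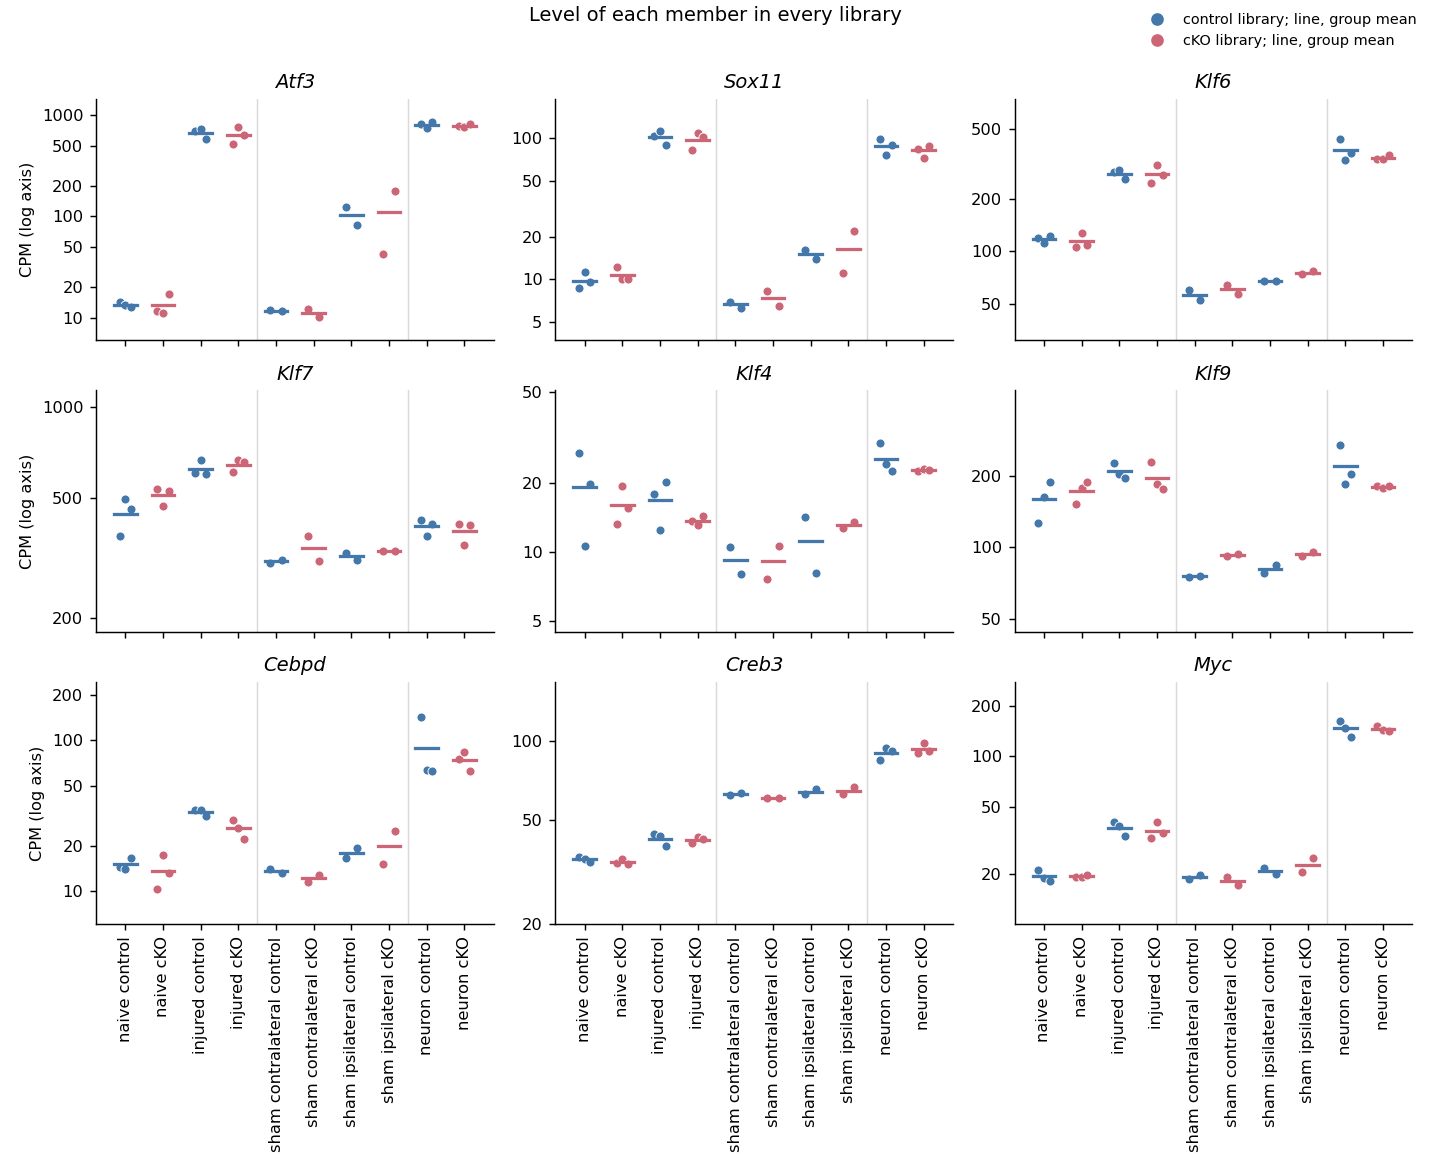
Level of each member (CPM, log axis, TMM-scaled within naive and injured, sham, and neuron libraries separately) in each of the 26 libraries, by group, with control in blue, cKO in red and a line at the group mean. Injured libraries stand above naive libraries for *Atf3*, *Sox11*, *Klf6*, *Cebpd*, *Myc*, *Klf7* and *Creb3* in both genotypes, while *Klf4* overlaps.

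At 1 day after sciatic nerve crush, 7 of the 9 members were called higher than in naive control ganglia, led by *Atf3* at 50.01-fold and *Sox11* at 10.4-fold. The reference was naive mice, so crush and the surgery itself cannot be told apart in this comparison. *Klf6*, *Cebpd* and *Myc* rose about as much as each other, at 1.95-fold to 2.36-fold, and *Klf7* and *Creb3* by 1.41-fold and 1.20-fold. *Klf4* and *Klf9* did not pass the test, and no member fell. In the same comparison 12.9% of 21261 genes were called higher and 21.6% in either direction (adjusted p under 0.05). The median log2 fold change was 0.96 over the members and -0.02 over all genes. Injured and naive control libraries did not overlap for 8 of the 9 members, against 38.1% of all genes.

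ATF3, a stress-induced bZIP factor, was at 14.4, 13.2 and 12.6 CPM in the naive controls and at 693, 731 and 589 CPM in the injured controls. The naive cKO ganglia had 11.7, 11.04 and 17.3 CPM and the injured cKO ganglia 526, 769 and 644 CPM. Every injured library was more than an order of magnitude above every naive library, with no separation by genotype. The log2 fold change was 5.64 (SE 0.191, adjusted p 3.47e-08) in controls and 5.60 (SE 0.191, adjusted p 3.84e-08) in cKO, the smallest p of all genes in each.

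SOX11, a factor of developing neurons that returns after injury, was at 8.63, 11.3 and 9.5 CPM in naive and 104, 112 and 89.2 CPM in injured controls. In cKO ganglia it was at 12.3, 10.1 and 10.05 CPM before and at 82.7, 108 and 101 CPM after crush. The injured ranges of the genotypes overlap. On the log2 scale the change was 3.37 (SE 0.137, adjusted p 7.57e-08) in controls and 3.17 (SE 0.136, adjusted p 1.24e-07) in cKO, and *Sox11* ranked 4 among all genes by p in each.

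Of the 4 Krüppel-like factors, *Klf6* and *Klf7* were called higher, and *Klf4* and *Klf9* did not pass the test. The difference between these pairs was not tested. In controls the log2 fold change of *Klf9* was 0.39 (SE 0.139), near that of *Klf7* at 0.50 (SE 0.0941). *Klf6* went from 119.7, 112 and 122 CPM in naive to 283, 293 and 259.9 CPM in injured controls, and from 106, 127 and 108 to 245, 314 and 274 CPM in cKO. All injured libraries stood far above all naive ones, and the log2 fold changes were 1.24 (SE 0.0943, adjusted p 5.22e-06) and 1.29 (SE 0.0945, adjusted p 4.43e-06). *Klf7* was at 375, 497 and 460.4 CPM in naive and 608, 670.1 and 600.0 CPM in injured controls.

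In cKO ganglia *Klf7* was at 537, 472 and 526 CPM before and at 609, 669 and 658 CPM after crush. Injured libraries stood above naive ones in both genotypes, with a gap smaller than the spread of the naive controls. The log2 fold change was 0.50 (SE 0.0941, adjusted p 0.00279) in controls and 0.33 (SE 0.0939, adjusted p 0.027) in cKO. The call of *Klf7* in cKO was lost with sex by transcripts as a covariate (0.25, adjusted p 0.315) and without naive cKO replicate 1, 2 or 3 or injured cKO replicate 2 or 3 (adjusted p 0.0553 to 0.107). *Gm13748*, which lies within *Klf7*, held 3.98% of its counts in these ganglia.

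*Klf9*, a hormone-responsive factor, was at 127, 163 and 189 CPM in naive and 226, 204 and 195 CPM in injured controls, which do not overlap. In cKO it was at 152, 178 and 188 CPM before and 227, 184 and 175 CPM after crush, which do. Its log2 fold change of 0.39 in controls (SE 0.139, adjusted p 0.0691) and of 0.18 in cKO (SE 0.139, adjusted p 0.421) missed the threshold. In cKO it ranged from 0.046 to 0.40 over the alternatives, and none of them called it. In controls it passed with DESeq2 (adjusted p 0.0374), in a fit of all 26 libraries (0.0474) and without naive control replicate 3 (log2 fold change 0.53, adjusted p 0.027), while without naive control replicate 1 it was 0.25 (adjusted p 0.205).

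*Klf4*, a growth-limiting factor better known from stem cells, varied more than any other member among naive controls, at 27.01, 10.6 and 19.8 CPM. The injured controls at 17.9, 12.5 and 20.1 CPM lay within that range, as did the naive cKO (13.3, 19.3 and 15.5 CPM) and injured cKO ganglia (13.6, 13.1 and 14.3 CPM). Its log2 fold change was -0.18 (95% interval -0.78 to 0.41) in controls and -0.23 (-0.83 to 0.38) in cKO. Changes of either sign within these intervals were not excluded. Without naive control replicate 1 the control value turned to 0.14.

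*Cebpd* was at 14.5, 13.9 and 16.6 CPM in naive and 34.4, 34.5 and 31.2 CPM in injured controls. In cKO ganglia it was at 10.3, 17.5 and 13.1 CPM before and at 29.8, 26.3 and 22.04 CPM after crush. The naive and injured libraries do not overlap in either genotype, and after crush the 3 control libraries were above the 3 cKO libraries. The log2 fold change was 1.15 (SE 0.159, adjusted p 0.00034) in controls and 0.93 (SE 0.161, adjusted p 0.00171) in cKO. *Spidr*, the overlapping gene, rose as well, by 0.33 (adjusted p 0.0246) and 0.48 (adjusted p 0.00364) on the log2 scale, and its part in the *Cebpd* counts was not tested.

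*Creb3* had the smallest called rise, from 36.00, 35.3 and 34.4 CPM to 43.9, 43.3 and 39.7 CPM in controls and from 34.04, 35.2 and 33.9 CPM to 40.6, 42.7 and 42.2 CPM in cKO. Replicates differed so little that the groups stayed apart in both genotypes. Its log2 fold change was 0.26 (SE 0.0513, adjusted p 0.00318) in controls and 0.28 (SE 0.0514, adjusted p 0.00237) in cKO, where the call was lost with sex by transcripts as a covariate (adjusted p 0.0713). The overlapping *Tln1* had log2 fold changes of 0.29 (adjusted p 0.0815) and 0.21 (adjusted p 0.242), values of the same size as those of *Creb3*, and its part in the *Creb3* counts was not tested.

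*Myc* went from 20.9, 18.7 and 18.2 CPM in naive to 40.7, 38.4 and 33.5 CPM in injured controls and from 18.99, 19.01 and 19.7 to 32.4, 40.7 and 34.8 CPM in cKO. The groups did not overlap, and the injured libraries of both genotypes covered nearly the same range. The change was 0.96 on the log2 scale (SE 0.0949, adjusted p 3.14e-05) in controls and 0.90 (SE 0.0952, adjusted p 6.34e-05) in cKO.

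In cKO ganglia the same 7 members were called higher after crush, where 10.7% of all genes were called higher and 18.6% in either direction. Those 7 did not overlap between naive and injured cKO libraries, against 36.1% of all genes. Without both libraries of mismatched sex, an alternative chosen after seeing the data, 7 members were called in controls and 6 in cKO, *Klf7* being lost (0.30, adjusted p 0.134). With sex by transcripts as a covariate 5 members were called in cKO, where all genes called fell from 3962 to 1414. Of cell-type markers, none of 9 macrophage, 7 Schwann cell, 6 neutrophil or 5 fibroblast markers was called in either genotype, and the summed sensory neuron markers were at 13310 to 16006 CPM in injured and 13342 to 15870 CPM in naive ganglia. Of 12 sensory neuron markers 1 was called lower in controls and 2 in cKO, and of 6 endothelial markers 1 was called lower in controls. Of 7 satellite glia markers 2 were called higher and 1 lower in controls and 1 higher in cKO, and their sum was 1929 to 1999 CPM in naive and 2083 to 2247 CPM in injured controls and 1902 to 2173 and 2136 to 2363 CPM in cKO. Neutrophil markers summed to 56.0 to 130 CPM in injured cKO and 101 to 704 CPM in the other naive and injured libraries, and 2 of 5 red blood cell markers were called lower after crush in cKO. The part of these markers' cells in the members' values was not tested. In these bulk samples a change in the number of cells of a type and a change of RNA per cell cannot be told apart.

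**Figure D2:**
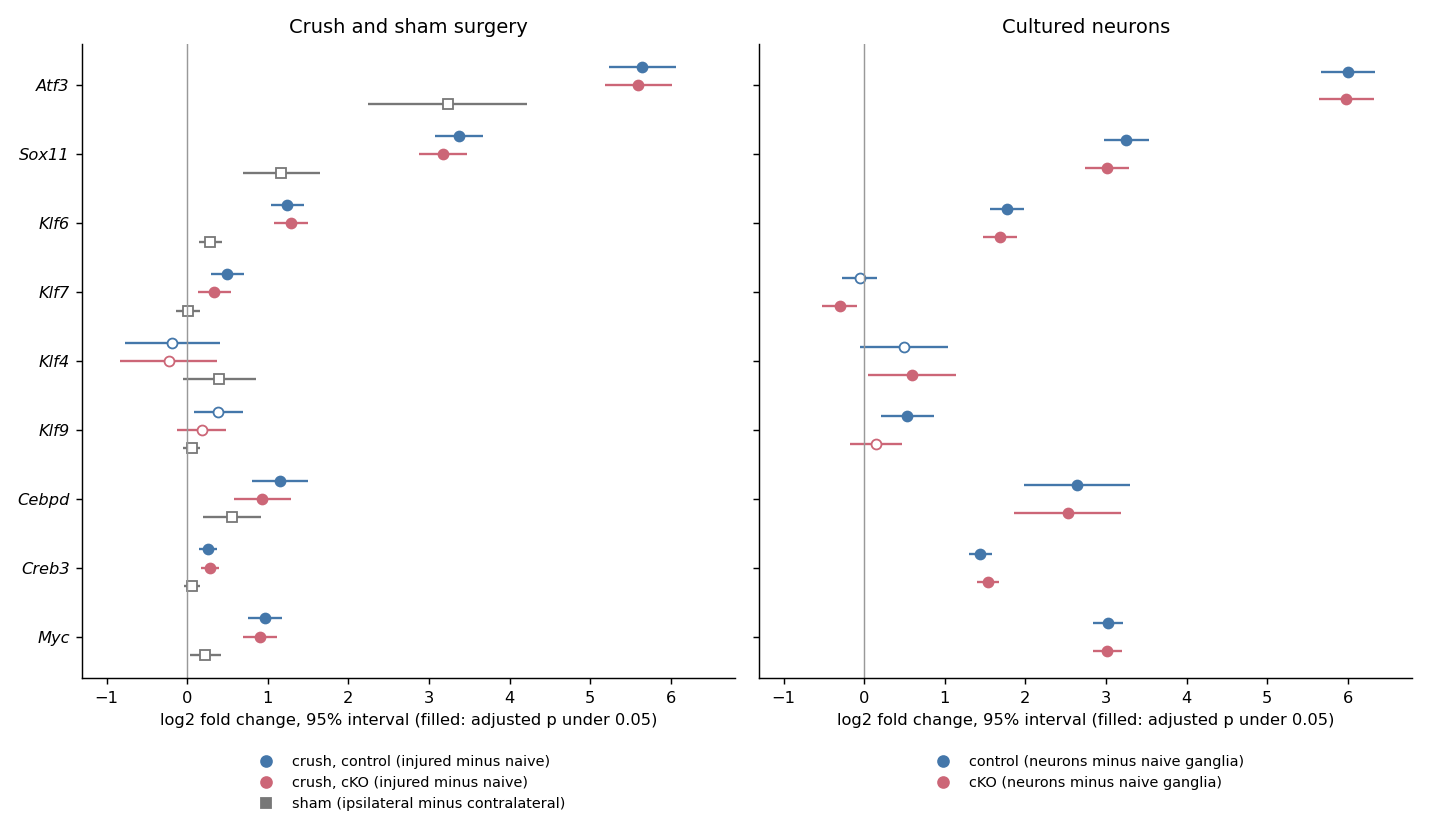
Log2 fold change of each member (x axis) with its 95% interval for crush in control and cKO and for the operated side after sham surgery (left), and for cultured neurons against naive ganglia (right). Filled points passed an adjusted p under 0.05. *Atf3* lies at 5.64 and 5.60 for crush and 3.23 for the sham side, and *Klf4* (-0.18, -0.23 and 0.40) and *Klf9* (0.39, 0.18 and 0.06) have open points in the left panel.

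Relatives of the members were also measured in control crush. Of 15 other KLF and SP factors tested, 3 rose and none fell: *Klf10* (0.63), *Klf13* (0.56) and *Klf8* (0.33), with a list median of 0.11. Of 10 other SOX factors, *Sox9*, a glial factor, rose by 0.93 on the log2 scale, *Sox12* fell by 0.34 and 8 were not called. Of 16 other ATF and CREB factors, 7 rose and 2 fell, the largest being *Batf3* (2.03), *Crem* (1.11), a cyclic AMP-responsive modulator, and *Creb1* (0.74). Of 5 other C/EBP factors, 3 rose: the stress factor *Ddit3* (0.68), *Cebpb* (0.56) and *Cebpg* (0.53). Of 11 other MYC network factors only *Mnt*, which competes with MYC for its partner MAX, rose (0.31). These counts stand against 21.6% of all genes called.

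Of 15 other transcription factors known from nerve injury, 11 rose and none fell, with a median log2 fold change of 0.56, against 12.9% of all genes called higher and 21.6% in either direction. The largest were *Nfil3*, a bZIP repressor (2.02, SE 0.180), *Jun*, an AP-1 subunit and partner of ATF3 (1.94, SE 0.0972), and *Fosl2* (1.38, SE 0.152). Of 14 genes known downstream of the members, 9 rose and none fell in controls. The largest were *Sprr1a*, a small proline-rich protein of regenerating axons (5.39, SE 0.411), *Npy*, a neuropeptide (3.88, SE 0.424), and *Gadd45a*, a stress gene (3.24, SE 0.126). In cKO ganglia 10 of 15 injury factors and 8 of 14 downstream genes rose, and 1 downstream gene fell, against 10.7% of all genes called higher and 18.6% in either direction. These lists were chosen for their known link to injury, so their direction is not independent evidence.

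Sham surgery gave no called member, although several stood higher on the operated side in every mouse. The test was edgeR with both genotypes pooled and the sides of a mouse as separate samples. It called 0 of the 9 members and 1 of 22160 genes (0.00451%), and 5 members had an unadjusted p under 0.05, as had 7.56% of all genes. The operated side was above the other in all libraries, without overlap, for *Atf3*, *Sox11*, *Cebpd*, *Klf6* and *Myc*, against 2.93% of all genes. DESeq2 called 4 members (200 genes in all), a fit without the filter on low counts 4, a fit of all 26 libraries 2, and limma on FPKM and the fit with the mouse as a block none.

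*Atf3* was at 11.9 and 11.5 CPM on the contralateral and 125 and 82.4 CPM on the ipsilateral side of control mice 1 and 2. In the cKO mice it was at 12.3 and 10.2 CPM contralaterally and at 42.3 and 179.7 CPM ipsilaterally. The contralateral values resemble each other, while the operated side spread from 42.3 to 179.7 CPM, with both control mice between the cKO mice. The ratio of the sides was 10.5 and 7.18 in the control mice and 3.45 and 17.7 in the cKO mice, and the log2 fold change over all mice was 3.23 (SE 0.424, adjusted p 0.147).

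*Sox11* was at 6.97 and 6.31 CPM contralaterally and 16.2 and 13.9 CPM ipsilaterally in control mice, and at 8.30 and 6.51 against 11.1 and 21.9 CPM in cKO mice. The ratio of the sides was lowest in cKO mouse 1 (1.33) and highest in cKO mouse 2 (3.37), the same mice as for *Atf3*, with the control mice at 2.32 and 2.21. The log2 fold change was 1.17 (SE 0.206, adjusted p 0.237). Without cKO mouse 1, *Atf3* (3.64, adjusted p 0.0199) and *Sox11* (1.46, adjusted p 0.031) passed, and without cKO mouse 2 they were at 2.46 (adjusted p 0.153) and 0.79 (adjusted p 0.308).

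*Cebpd* was at 14.05 and 13.2 CPM contralaterally and 16.6 and 19.2 CPM ipsilaterally in control mice, and at 11.5 and 12.8 against 15.02 and 25.02 CPM in cKO mice (log2 fold change 0.56, adjusted p 0.475). *Klf6* was at 59.5 and 52.4 against 67.3 and 66.97 CPM in control and at 63.9 and 57.01 against 73.5 and 76.5 CPM in cKO mice (0.29, adjusted p 0.296). *Myc* had 18.6 and 19.5 against 21.5 and 20.01 CPM in control and 18.97 and 17.05 against 20.3 and 24.7 CPM in cKO mice (0.22, adjusted p 0.6). These 3 were higher on the operated side in each of the 4 mice. With 1 mouse left out the log2 fold change of *Myc* ranged from 0.11 to 0.32. *Klf4* had a log2 fold change of 0.40 (adjusted p 0.715), *Creb3* of 0.06, *Klf9* of 0.06 and *Klf7* of 0.01, and for these 4 the sides overlapped over all mice. *Klf4* (ratio of the sides 1.01 to 1.67) and *Creb3* (1.005 to 1.102) were also higher on the operated side within each mouse. Of 15 downstream genes only *Gal*, which encodes the neuropeptide galanin, passed (1.29, adjusted p 0.000659). No cell-type marker was called by side, but satellite glia markers summed to 2213 to 2288 CPM on the operated and 2006 to 2192 CPM on the other side, without overlap. In the cKO mice sensory neuron markers summed to 15450 to 15495 CPM on the operated and 17185 to 17979 CPM on the other side, and Schwann cell markers to 3033 to 3480 and 3971 to 5040 CPM. In the control mice these were at 16698 to 16986 against 15906 to 16710 CPM and at 2968 to 4091 against 3227 to 4258 CPM, with overlap. Macrophage markers in the cKO mice were at 175 to 195 against 149 to 160 CPM and in the control mice at 152 to 166 against 160 to 183 CPM. The part of these cells in the members' values was not tested.

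**Figure D3:**
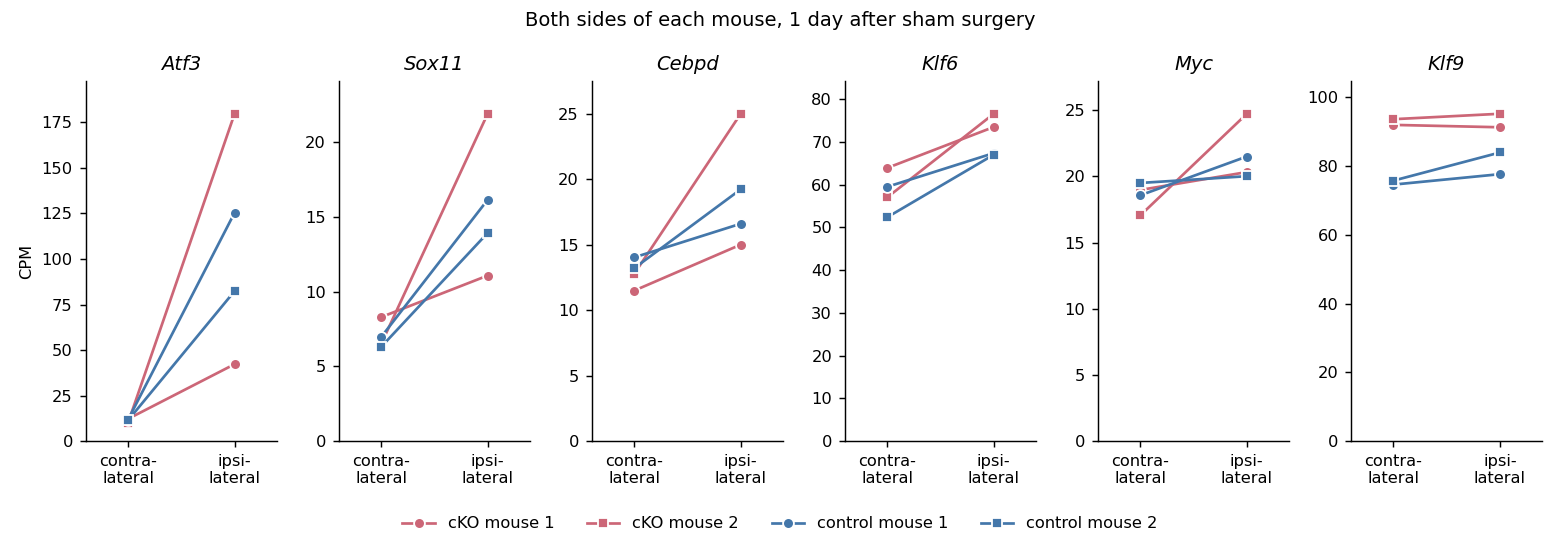
Level of 6 members (CPM, axes from 0) on the contralateral and ipsilateral side of each sham mouse, joined by a line, with control mice in blue and cKO mice in red. *Atf3* on the ipsilateral side ranges from 42.3 CPM in cKO mouse 1 to 179.7 CPM in cKO mouse 2, and the *Klf9* lines of the cKO mice lie above those of the control mice on both sides.

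The crush effect exceeded the side effect of sham surgery for most members. The difference of the effects, each averaged over genotypes in a fit of all 20 ganglion libraries, was called higher for 6 of 9 members, against 6.09% of 22254 genes called higher and 9.19% in either direction. It was 2.40 for *Atf3* (SE 0.403, adjusted p 0.00156), 2.12 for *Sox11* (SE 0.221, adjusted p 5.12e-05), 0.99 for *Klf6* (SE 0.0991, adjusted p 4.19e-05) and 0.72 for *Myc* (SE 0.108, adjusted p 0.000676). *Klf7* (0.42, adjusted p 0.0197) and *Creb3* (0.22, adjusted p 0.0185) passed, and *Cebpd* (0.49, adjusted p 0.146), *Klf9* (0.24, adjusted p 0.324) and *Klf4* (-0.60, adjusted p 0.254) did not. The count of members was 4 without sham cKO mouse 1 or without sham control mouse 1, when *Klf7* and *Creb3* were lost. *Atf3* and *Sox11* were at 1.98 and 1.82 without sham cKO mouse 1 and at 3.17 and 2.49 without sham cKO mouse 2. This fit treats both sides of a sham mouse as separate samples; with the sham mouse as a block, an alternative added after seeing the data, the same 6 members were called. The references differ, being naive mice for crush and the other side of the same mouse for sham, and sex and depth differ with them, so these cannot be told apart.

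Neurons after 24 hours in culture held more transcript of most members than naive ganglia, but the cells, the culture, the tamoxifen label and the deposited table all differ between them. In controls 7 of 9 members were called higher, and 83.2% of 22185 genes were called in either direction (41.7% higher). In cKO 7 were higher and *Klf7* was lower, against 82.1% called (42.0% higher). A share of called members near that of all genes is no result about the members, so the sizes are given as a description. These comparisons use the same naive libraries as the crush comparisons.

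*Atf3* was at 815, 746 and 863 CPM in control and 783, 774 and 819 CPM in cKO neurons, above the range of the injured ganglia (526 to 769 CPM) apart from control replicate 2, with the sets scaled separately. Its log2 fold change against naive ganglia was 5.996 in control and 5.98 in cKO, next to 5.64 and 5.60 for crush. *Sox11* was at 99.3, 76.3 and 89.4 CPM in control and 83.9, 72.8 and 88.6 CPM in cKO neurons, with log2 fold changes of 3.25 and 3.01 next to 3.37 and 3.17 for crush. The difference between these culture and crush values was not tested.

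*Myc*, *Cebpd* and *Creb3* had larger log2 fold changes against naive ganglia in neurons than in injured ganglia, which was likewise not tested. *Myc* was at 163, 148 and 131 CPM in control and 152, 144 and 142 CPM in cKO neurons, above every injured ganglion, with log2 fold changes of 3.02 in both genotypes. *Cebpd* was at 142, 62.99 and 62.1 CPM in control and 75.4, 83.2 and 61.96 CPM in cKO neurons (2.64 and 2.52), with the control mean carried by replicate 1. *Creb3* was at 84.9, 93.9 and 91.2 CPM in control and 90.2, 98.6 and 91.7 CPM in cKO neurons (1.44 and 1.53), while the overlapping *Tln1* rose by 2.91 and 2.82 on the log2 scale. The size for *Creb3* depended on the reference, and against contralateral sham ganglia it was 0.38 and 0.52.

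Among the Krüppel-like factors, *Klf6* was at 442, 334 and 368 CPM in control and 339.8, 339 and 354 CPM in cKO neurons, all above the injured ganglia, with log2 fold changes of 1.77 and 1.69. *Klf7* was at 424, 374 and 410.0 CPM in control and 411, 348 and 407 CPM in cKO neurons (-0.06, adjusted p 0.61, and -0.31, adjusted p 0.0129). The *Klf7* call in cKO was lost without the filter (adjusted p 0.0527) and without neuron cKO replicate 2 (adjusted p 0.0641), and against contralateral sham ganglia the value turned to 0.074 (adjusted p 0.551). *Klf9* was at 268, 185 and 202 CPM in control neurons (0.54, adjusted p 0.00494) and at 181, 177 and 181 CPM in cKO neurons (0.15, adjusted p 0.354). Against contralateral sham ganglia *Klf9* passed in both genotypes (1.398 and 0.85, adjusted p 6.26e-06 and 0.000229), and *Klf6* was at 2.63 and 2.40. *Klf4* was at 29.7, 24.2 and 22.6 CPM in control (0.49, adjusted p 0.0851) and 22.5, 22.96 and 22.7 CPM in cKO neurons (0.60, adjusted p 0.0438), a call that 9 of 15 alternatives lost. In control neurons 4 of 15 alternatives called *Klf4*. Among them were no filter (0.56), contralateral sham ganglia as the reference (1.32, and 1.21 in cKO) and leaving out naive control replicate 1 (0.79, adjusted p 0.00779). With 1 library left out the *Klf4* value in control neurons ranged from 0.17 to 0.79.

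Cell-type markers differed between the neuron libraries and ganglia. The counts called stand against 83.2% of all genes called in control neurons (41.7% higher) and 82.1% in cKO neurons (42.0% higher). Schwann cell markers summed to 706 to 884 CPM in neurons and 3593 to 5675 CPM in naive ganglia, and 6 of 7 were called lower. Sensory neuron markers summed to 6405 to 8124 CPM against 13342 to 15870 CPM, with 9 of 12 lower and 3 higher, and endothelial markers to 1062 to 1626 CPM against 99.9 to 166 CPM, with 6 of 6 higher. The labelled neurons thus held endothelial markers at a higher level than the ganglia, and the part of this in the members' values was not tested. Of 10 other SOX factors in control neurons 6 rose and 3 fell, led by *Sox17* (3.41) and *Sox18* (3.15), known from endothelium, and *Sox4* (2.37). Of 15 other KLF and SP factors 7 rose and 4 fell. *Klf1* fell by 2.69, *Klf15* fell by 1.43 and *Sp1* rose by 1.19 on the log2 scale.

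Further factors were called in control neurons in both directions, where 83.2% of all genes were called and 41.7% were called higher. Of 16 other ATF and CREB factors 11 rose and none fell, led by *Atf1* (2.31), *Atf4* (1.63), the main factor of the integrated stress response, and *Creb3l2* (1.45). Of the other C/EBP factors 4 rose and *Cebpe*, a granulocyte factor, fell by 4.46 on the log2 scale, with *Cebpb* (2.26) and *Ddit3* (2.18) the largest rises. Of 11 MYC network factors 4 rose and 4 fell, including *Mga* (1.25), *Mxd4* (-0.99995) and *Mycn* (-0.99). All 15 injury factors tested rose, led by *Fosl1* (6.13), *Fos* (3.79) and *Fosl2* (3.62). Of 14 downstream genes 7 rose and 6 fell, and the largest rises were in *Sprr1a* (5.89), *Cdkn1a*, a cell cycle inhibitor (2.97), and *Gadd45a* (2.94).

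No member was called between cKO and control, the genotypes being those of the labels. No tamoxifen is stated for the neuron and sham mice, and *Ahr* itself was not called by genotype, so its deletion is not shown by these data. Of the 9 members edgeR called 0 in each of the 5 genotype comparisons, where 2, 2, 0, 1 and 0 genes were called among all genes in naive ganglia, injured ganglia, neurons and the ipsilateral and contralateral sham side (0.00941%, 0.00941%, 0%, 0.00451% and 0%). DESeq2 and limma on FPKM called 0 members in each as well. At an unadjusted p under 0.05 there was 1 member in injured ganglia (*Cebpd*), 1 on each sham side (*Klf9*) and 0 in naive ganglia and in neurons. The share of all genes at that p was 5.79% in naive and 2.72% in injured ganglia, 8.0% in neurons, and 7.59% and 5.23% on the ipsilateral and contralateral side.

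For the strongly induced members the intervals were narrow in the larger sets. The cKO minus control log2 fold change of *Atf3* was -0.05 (95% interval -0.38 to 0.27) in injured ganglia and -0.03 (-0.21 to 0.16) in neurons. That of *Sox11* was -0.06 (-0.32 to 0.19) in injured ganglia and -0.11 (-0.36 to 0.15) in neurons. On the sham sides, with 2 mice per genotype, the interval of *Atf3* reached from -1.16 to 1.346 ipsilaterally and from -1.41 to 1.28 contralaterally. Changes within those intervals were not excluded by the sham data. In the same fit the *Atf3* side effect of 3.23 was not called (adjusted p 0.147), so larger genotype changes could also be missed.

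*Cebpd* was lower in injured cKO than in injured control ganglia in every pair of libraries, at a log2 fold change of -0.36 (SE 0.154, adjusted p 1). The contralateral sham ganglia showed the same order (-0.17), while naive, neuron and ipsilateral libraries overlapped. With sex by transcripts as a covariate the value was -0.16, and without the libraries of mismatched sex -0.41. Libraries without overlap, lower in cKO, occurred in 4.56% of all genes in that comparison. *Cebpd* is also known from myeloid cells, and neutrophil markers summed to 101 to 424 CPM in injured control and 56.0 to 130 CPM in injured cKO ganglia. Red blood cell markers summed to 372 to 456 CPM and 107 to 286 CPM. The part of these cells in the *Cebpd* value was not tested.

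*Klf9* stood apart by genotype in both sham sides and in neurons, in opposite directions. The contralateral sham ganglia had 74.6 and 75.7 CPM in control and 91.9 and 93.6 CPM in cKO mice, a log2 fold change of 0.30 (SE 0.0626, adjusted p 0.88). The ipsilateral side of the same mice had 77.6 and 83.9 CPM against 91.3 and 95.2 CPM (0.21, SE 0.0625, adjusted p 0.528). Higher in cKO without overlap were 19.9% and 17.6% of all genes on these sides, and the sides share their mice. In neurons all cKO libraries (177 to 181 CPM) were below all control libraries (185 to 268 CPM), at -0.28 (SE 0.129, adjusted p 0.628), against 7.69% of genes lower without overlap. With 1 neuron library left out the value ranged from -0.39 to -0.11. In naive ganglia the value was 0.11 (adjusted p 0.848) and in injured ganglia -0.09 (adjusted p 1), both with overlap.

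*Klf7* was 0.20 higher in naive cKO on the log2 scale (95% interval -0.001 to 0.41, adjusted p 0.754), with overlapping libraries, and 0.097 without naive control replicate 1. *Klf6* and *Klf7* were higher without overlap in ipsilateral sham cKO ganglia and *Creb3* and *Cebpd* lower in contralateral ones (19.1% of all genes), with 2 mice each and none near the threshold (adjusted p 0.755 to 0.964). None of the other listed family, injury or downstream genes was called in a genotype comparison.

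The crush effect itself did not differ detectably between genotypes for any member. The interaction was called for 0 of 9 members and 0 of 21261 genes by edgeR, 0 members had an unadjusted p under 0.05 (2.95% of all genes had), and DESeq2 called 0 members. The crush effect in cKO minus that in control was -0.05 for *Atf3* (95% interval -0.57 to 0.48), -0.20 for *Sox11* (-0.61 to 0.21) and -0.22 for *Cebpd* (-0.71 to 0.27) on the log2 scale. With 1 library left out these ranged from -0.20 to 0.18, from -0.32 to -0.10 and from -0.39 to -0.0035. Interactions within these intervals were not excluded at this n. The difference of the sham side effect between genotypes was also called for none of the 9, with 0 at an unadjusted p under 0.05 (4.08% of all genes) and 0 by DESeq2.

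**Figure D4:**
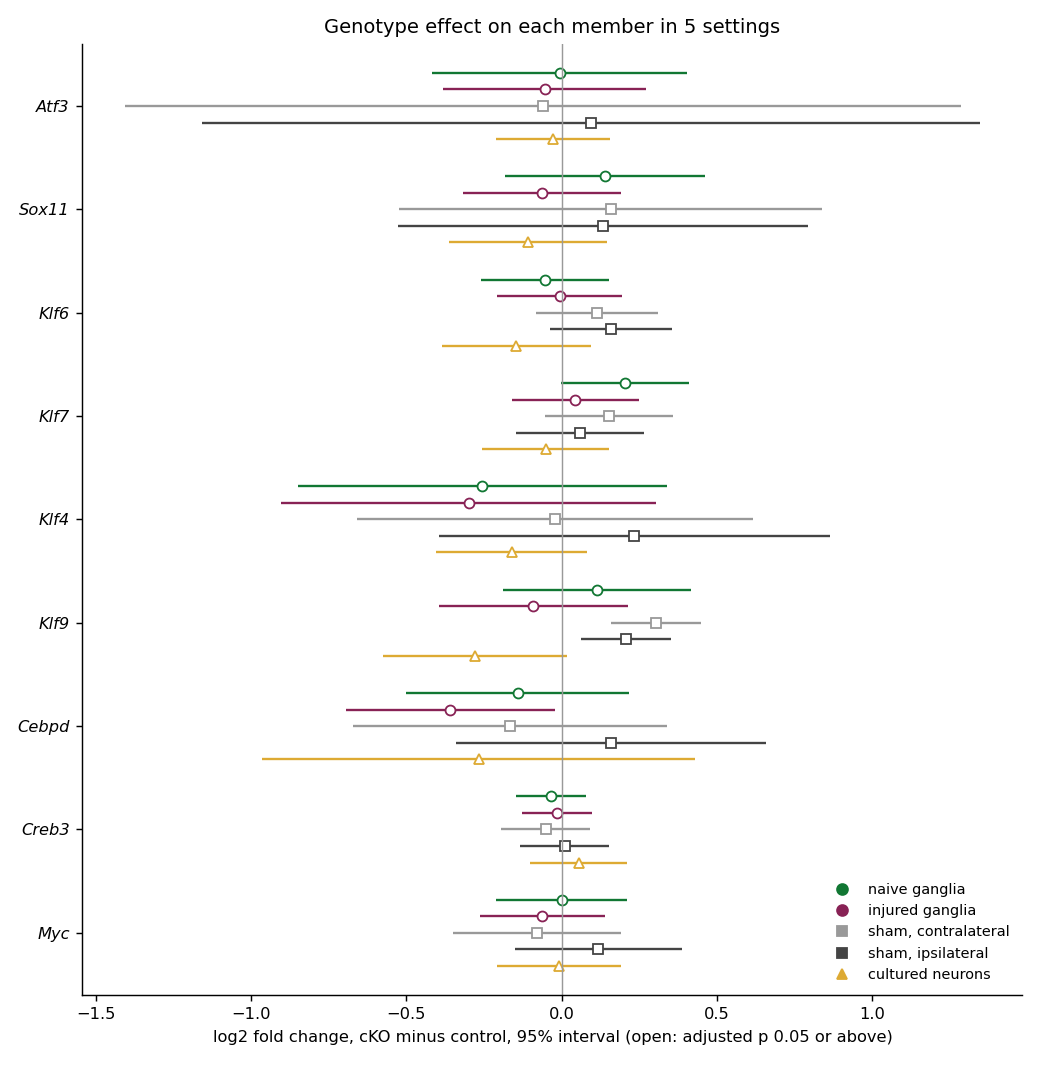
Log2 fold change of cKO minus control (x axis) with its 95% interval for each member in naive ganglia, injured ganglia, contralateral and ipsilateral sham ganglia and cultured neurons. All points are open, since none passed an adjusted p under 0.05; the *Klf9* points lie at 0.30 and 0.21 in sham ganglia and at -0.28 in neurons.

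Across the 10 group means the members were alike to different degrees. The Pearson correlation of mean log2 CPM was 0.97 between *Atf3* and *Sox11*, 0.98 between *Cebpd* and *Myc*, 0.93 between *Sox11* and *Klf6* and 0.92 between *Klf6* and *Klf9*. It was -0.66 between *Creb3* and *Klf7*. The 10 points come from sets that differ in table, depth and sex, and the sham sides share their mice, so these values are a description.

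Over the same 10 groups the genes most like a member were drawn from 14453 to 14455 genes. *Sprr1a* (0.998) and *Tmem88b* (0.994) were most like *Atf3*, and *Rab23* (0.995) and *Flrt3* (0.994) most like *Sox11*. *Nras* (0.988) and *Morf4l2* (0.984) led for *Klf7*, *Klhl6* (0.985) and *Stk38* (0.981) for *Klf4*, and *Map3k2* (0.994) and *Ankrd12* (0.994) for *Klf9*. *Trank1* and *Rcc1* (both 0.994) led for *Cebpd*, *Noc4l* (0.999) and *Sars* (0.998) for *Creb3*, and *Ppp1r15a* and *Pim1* (both 0.998) for *Myc*.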

How the data were processed

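The authors deposited 1 table of counts and 1 of FPKM for the 12 naive and injured libraries, and another pair for the 14 sham and neuron libraries. The deposited counts were whole numbers per gene and the deposited FPKM divided each count by library total and gene span, as the values show (within 0.1% of the span for 99.2% of genes with at least 50 counts). Per the labels' protocols, libraries were made with a TruSeq Stranded mRNA kit. The submitters' processing notes name Trim Galore, HISAT2, featureCounts and mm10. Versions and the strand setting are not given in the sources used here.

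Of 55401 genes, 99.5% were matched to a symbol. Counts were tested with edgeR 4.0.16 (R 4.3.3; quasi-likelihood test, filterByExpr with minimum count 10 and total 15, TMM, Benjamini-Hochberg over all genes of a fit, called at an adjusted p under 0.05, two-sided). Fits used the 12 naive and injured, 6 neuron, 8 sham, 12 naive and neuron, or 20 ganglion libraries. SE is the log2 fold change over the square root of F, and 95% intervals use the t distribution. Alternatives were RLE factors, DESeq2 1.42.0, limma 3.58.1 on log2(FPKM + 0.1), no filter, a stricter filter (at least 10 counts everywhere), a threshold of 0.1, all 26 libraries, only the groups compared, sex covariates, replicate blocks, contralateral sham ganglia as the reference for culture, and leaving out libraries. The fits were tested on simulated data.

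Replicates of a group differed by more than counting noise (chi-square per degree of freedom 3.32 to 39.9), so none was a copy. The mouse pairs the sham sides, by the labels (deviations of the sides correlated at -0.159 to 0.229). Each label is a mouse apart from the sham sides, though litters and batches are not given, so p-values outside the sham set measure the spread between these mice. The main fits of sham libraries took both sides of a mouse as separate samples. Their p-values therefore do not account for the pairing. Members, lists and tests were chosen with earlier results of these data known. Named are the members in every comparison, up to 3 genes per other list called in control crush and in control culture with the largest change, list genes called by genotype or side, *Ahr*, *Thy1*, and the 2 genes most like each member (those for *Klf6* are not reported here).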

Additional observations from a re-analysis of the deposited data

Results flagged for a closer look

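*Klf9* was the member whose genotype effect took opposite signs without overlap in different settings. The effect on the ipsilateral sham side exceeded that in neurons by 0.49 and the effect on the contralateral side by 0.58 on the log2 scale. Higher in cKO without overlap were 19.9% of all genes on the contralateral and 17.6% on the ipsilateral side, which share their mice. Lower in cKO without overlap in neurons were 7.69%. In a fit of the 14 sham and neuron libraries, chosen after seeing the data, the mean effect in sham was 0.25 and that in neurons -0.26, a difference of 0.50 (SE 0.125, adjusted p 0.382 over 24192 genes), which missed the threshold. In the neuron libraries alone the effect was -0.28, and -0.11 without control replicate 1, the neuron library of lowest depth. No group held 4 samples, and no library was tested as an outlier.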

How the results depend on the processing

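Counts of called members held within 1.5 times in every alternative run except for the side after sham, where 2 members were called with all 26 libraries, 4 with DESeq2, 4 with no filter, and 0 to 2 with 1 mouse left out (2 without sham cKO mouse 1). Members called were 7 or 8 for crush in control, 5 to 7 for crush in cKO, 7 or 8 and 6 to 8 for culture in control and cKO, 4 to 7 for crush against sham, and 0 for each genotype comparison and interaction. For called members, 254 of 270 log2 fold changes with 1 library or mouse left out and 340 of 351 under other alternatives kept direction and call, and 1 reversed, *Klf7* in cKO culture with contralateral sham ganglia as the reference (0.074). No reversed value was called. The causes of these changes were not tested.

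Counts over all genes moved more. Against 1 gene in the side comparison, 148 were called with all 26 libraries, 200 with DESeq2, 381 with no filter, 41 without sham cKO mouse 1 and 4 with the mouse as a block. Genotype calls were 0 to 165 in neurons (reported 0), 0 to 626 ipsilaterally (reported 1), 0 to 59 contralaterally (reported 0), 0 to 15 in injured (reported 2) and 0 to 3 in naive ganglia (reported 2). The interactions reached 8 (crush by genotype) and 144 (side by genotype), against 0. Crush in cKO gave 1414 with sex by transcripts and 2400 without the libraries of mismatched sex, against 3962. Crush against sham gave 1036 and 1198 without sham cKO mouse 1 and sham control mouse 1, and 3071 at a threshold of 0.1, against 2046.

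Reversals of other named values were all of uncalled changes. For *Klf7* the sham side was -0.00084 with RLE factors and with DESeq2, -0.0017 with no filter, -0.017 with all 26 libraries and -0.065 to 0.074 with 1 mouse left out. In control culture *Klf7* was 0.0055 with no filter, 0.25 against contralateral ganglia and -0.20 to 0.00013 with 1 library left out. Leaving out 1 library also gave -0.48 to 0.14 for *Klf4* in control crush, -0.027 to 0.25 for *Klf9* by genotype in naive ganglia and -0.47 to 0.23 for *Cebpd* by genotype in neurons. By genotype in injured ganglia it gave -0.20 to 0.072 for *Atf3* and -0.15 to 0.040 for *Sox11*, and -0.20 to 0.18 for the *Atf3* interaction.

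Equal replicate numbers paired nothing by the labels outside the sham sides, and same-numbered libraries deviated together inconsistently (r -0.418 to 0.412 over 18 pairs of ganglia, 0.0642 to 0.221 over 3 of neurons). With a replicate block 7 members were called for crush in each genotype, 6 for crush against sham (the sham mouse as the block), 7 for culture in each (8 without it in cKO, *Klf4* being lost at 0.59, adjusted p 0.0585) and 0 by genotype and for the side. Each member had at least 192 counts in every library.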

Other observations

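Genes that respond to glucocorticoids, hormones that also induce *Klf9*, were mixed after crush. In controls 5 of 12 rose and none fell, against 12.9% of all genes called higher and 21.6% in either direction, including *Zbtb16* (log2 fold change 1.66, SE 0.493), *Mt2* (1.6004, SE 0.209) and *Mt1* (0.92, SE 0.127). In cKO 3 rose and 1 fell, against 18.6% of all genes called. Of 11 immediate early genes 4 rose in controls, led by *Jun* (1.94), *Junb* (0.91) and *Dusp1* (0.78), which also counts among the glucocorticoid-responsive genes. In cultured control neurons 10 of the 11 rose, led by *Fosb* (4.93), *Fos* (3.79) and *Ier3* (3.16), and 9 of the 12 glucocorticoid-responsive genes rose and 1 fell, led by *Nfkbia* (3.30), *Mt2* (3.13) and *Dusp1* (2.75), against 41.7% of all genes called higher and 83.2% in either direction.

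Neuron control replicate 1 held the highest value of its group for *Cebpd* (142 CPM), *Klf9* (268), *Klf6* (442), *Klf4* (29.7), *Sox11* (99.3), *Klf7* (424) and *Myc* (163). Its total of 25299938 counts was the lowest of the neuron libraries.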
